A study of Homo sapiens with 30 samples.

Results

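Ribosome biogenesis was followed through 40 human genes whose products build ribosomes in the nucleolus, and the level of each RNA was compared between cells given a BET inhibitor and cells given its solvent. The level of MYC RNA was set beside them. The 40 genes were chosen by name and matched by Ensembl gene ID to the raw count table, in which all 40 were found among 33538 genes. All 40 passed the filter on low counts, as did 16713 genes in all. By role, 3 genes code for core proteins of the C/D box small nucleolar ribonucleoproteins, 3 for those of the H/ACA box particles and 3 act with RNA polymerase I. A further 5 code for abundant nucleolar scaffold and chaperone proteins, 11 assemble the small ribosomal subunit and 15 the large one.

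Poly(A)-selected RNA was sequenced from the Ewing sarcoma cell lines TC32, A673 and CHLA10, a tumour type driven by the fusion transcription factor that the genotype label of every sample names, EWS::FLI1. The inhibitor was BMS-986158 at 5 nM, which blocks the bromodomains of the BET proteins, readers of acetylated chromatin. The solvent was DMSO. The 10 groups, of 3 libraries each, were TC32 cells treated for 3 days (72 hours) and their DMSO cells, A673 cells treated for 20 days and their DMSO cells, A673 cells treated for 3 days and their DMSO cells, CHLA10 cells treated for 20 days and their DMSO cells, and CHLA10 cells treated for 3 days and their DMSO cells. The cells treated for 20 days without a break are named persister cells in the labels, and the time that the 20-day DMSO cells spent in solvent is not given in the sources used here. Each line stands for 1 tumour, and CHLA10 was grown in IMDM and the other lines in RPMI1640. The labels leave out whether the 3 replicates of a group were grown separately. A p-value here therefore tells of the scatter among libraries, and that scatter may be technical.

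Ribosome assembly starts when RNA polymerase I copies the ribosomal RNA genes into a long precursor in the nucleolus. Small nucleolar RNAs, bound by the C/D box or H/ACA box proteins, guide methylation and pseudouridylation of that precursor, and large sets of assembly factors fold, cut and export the pre-40S and pre-60S particles. Many of these genes are known targets of the transcription factor MYC, and MYC RNA itself falls on BET inhibition in many blood cancers, which is the background to setting the 40 genes beside MYC.

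The libraries held 16083677 to 48949739 counts each. HEXIM1, an RNA that rises on BET inhibition in many cell types, was higher in treated cells in all 5 treatment comparisons, by 0.66 to 1.06 on the log2 scale. Ewing sarcoma markers such as CD99 (median 1203 CPM, counts scaled to an equal library total) were present, but NKX2-2 lay between 0.0402 and 2.10 CPM in the CHLA10 libraries, against 7.87 to 93.6 CPM in the A673 and TC32 libraries. In A673 at 20 days NKX2-2 was 7.87 to 25.8 CPM in treated cells and 45.8 to 47.8 CPM in DMSO cells. Of the 9 Ewing markers 33.3% fell in TC32 (adjusted p under 0.05), 77.8% in A673 at 20 days and 33.3% in A673 at 3 days. In CHLA10 55.6% fell at 20 days and 44.4% at 3 days. No comparison had any of the 9 higher, and 15.7% to 22.8% of all genes tested fell. The summed level of 10 markers of other cell types stayed between 0.0795 and 8.23 CPM in each library, with CD3E at 0. It was 0.183 to 1.54 CPM over the treated TC32 and A673 groups, against 2.62 to 8.23 CPM over their DMSO groups, and 0.0795 to 0.603 CPM over the treated CHLA10 groups, against 0.912 to 1.65 CPM over theirs. Its part in the results was not tested. Farthest from the rest of their groups were treated A673 replicate 3 at 20 days, DMSO A673 replicate 3 at 3 days and the treated and DMSO replicates 3 of CHLA10 at 20 days. Counts without these 4 libraries, a setting chosen after seeing the data, are given where the dependence of each count on single libraries is described. Calls and counts are those of the fit to all 30 libraries unless another setting is named. In bulk RNA, fewer cells of a kind and less RNA per cell cannot be told apart.

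A pair of members was thinly counted. NOP2 had 371 counts over all 30 libraries and PPAN 3614, against 19326 to 908102 for the other members, and 54.4% and 56.0% of their annotated exon bases are shared with same-strand genes (AC006064.6 and PPAN-P2RY11), so their values are uncertain. In all, 17 members share exon bases with a listed gene, mostly on the opposite strand. As the strand setting of the counting is unknown, reads of such partners cannot be told apart, which touches HEATR1 (2095 bases shared with LGALS8), NHP2, NOP14, NOB1, NOP16, BRIX1 and WDR74 most. NPM1 has near-identical pseudogene copies and is uncertain for that reason.

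Treated cells held less RNA of many of these genes in 3 of the 5 comparisons, more in 1 and a mixture in 1. In TC32 at 3 days 16 of the 40 members fell and 1 rose (adjusted p under 0.05, edgeR quasi-likelihood test with Benjamini-Hochberg adjustment over all genes tested), while 22.8% of all genes tested fell and 22.3% rose. In A673 at 20 days 19 fell and 0 rose, against 19.9% and 19.7% of all genes, and in CHLA10 at 3 days 20 fell and 0 rose, against 15.7% and 14.0%. A673 at 3 days went the other way, with 11 members higher and 1 lower where 15.3% of all genes were higher and 18.4% lower. CHLA10 at 20 days had 3 higher and 7 lower, where 16.5% of all genes were higher and 17.2% lower. The 0 higher counts of A673 at 20 days and CHLA10 at 3 days were also 0 at an unadjusted p under 0.05 and with DESeq2.

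The median log2 change over the members was -0.21 in TC32, -0.34 in A673 at 20 days, 0.18 in A673 at 3 days, 0.00 in CHLA10 at 20 days and -0.33 in CHLA10 at 3 days. Over all genes tested it lay between -0.02 and 0.00 in each. Single changes were small: called members fell by at most 0.94 and rose by at most 0.64 on the log2 scale. In CHLA10 at 3 days all 40 members had a fitted change below 0, in A673 at 20 days 34 did, in TC32 27, in CHLA10 at 20 days 19, and in A673 at 3 days 9.

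**Figure D1:**
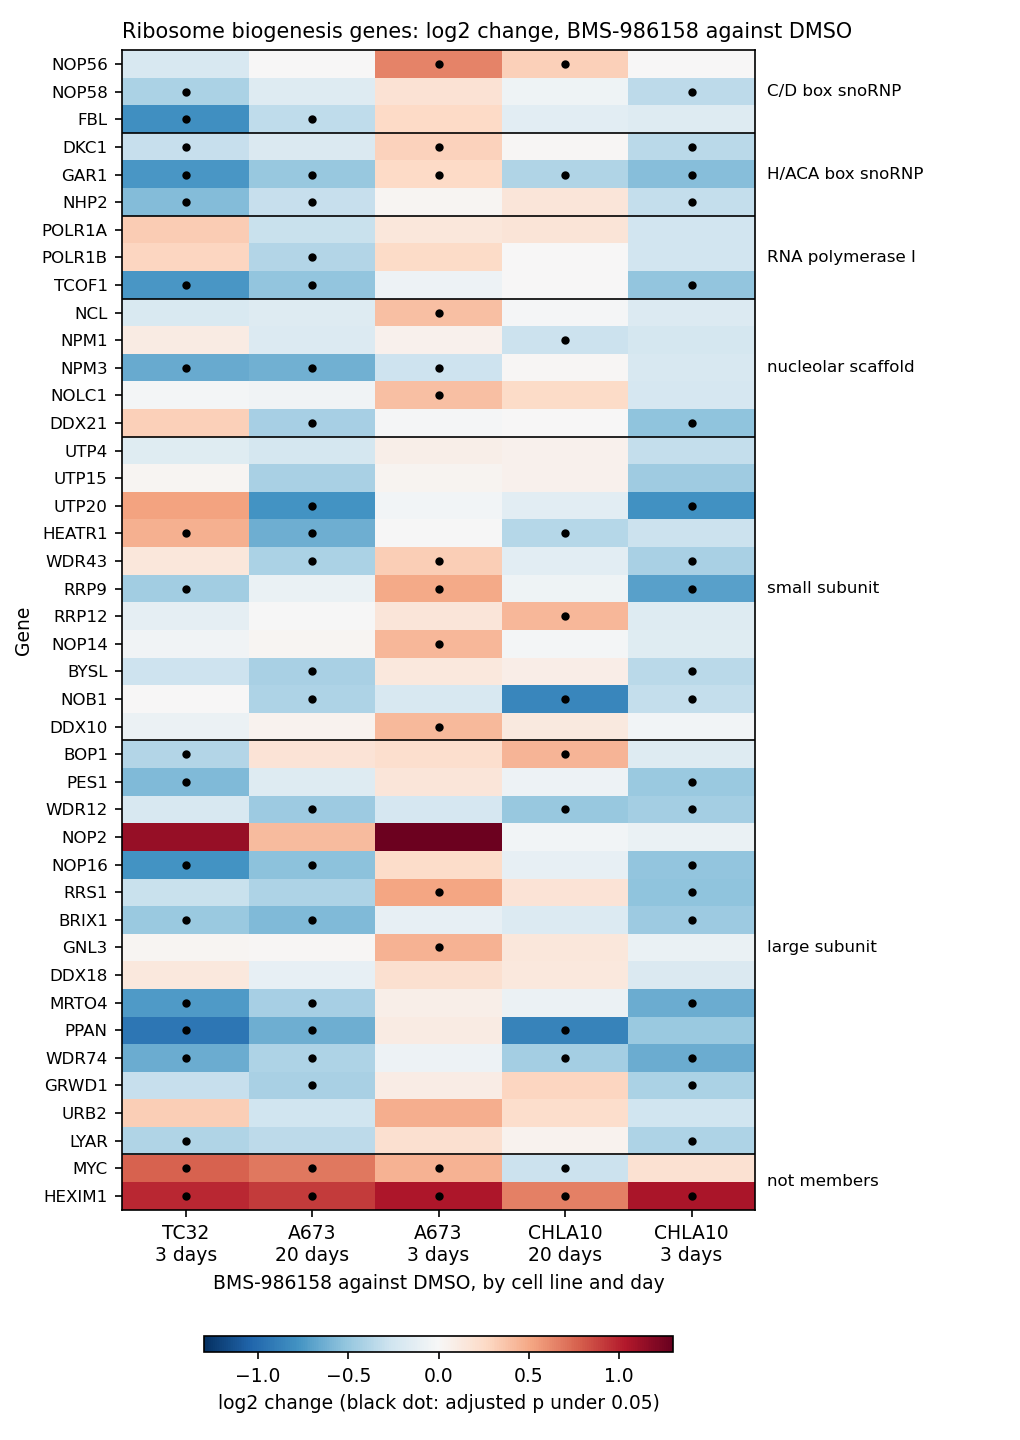
Log2 change of each of the 40 members (rows, by role) in treated over DMSO cells, for the 5 treatment comparisons (columns); colour gives the log2 change and a dot marks adjusted p under 0.05; MYC and HEXIM1 stand below the members. Lower values fill the columns of CHLA10 at 3 days, where 20 members were called, and A673 at 20 days, where 19 were called, and the 11 members called higher stand in the column of A673 at 3 days.

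MYC did not run in step with these counts. Its RNA averaged 624.8 CPM in treated TC32 cells and 366.9 CPM in DMSO cells, a log2 change of 0.77 ± 0.10 (SE, n = 3 each, adjusted p = 6.56e-07), beside the 16 members that fell. In A673 at 20 days it averaged 385.2 CPM in treated cells and 238.1 CPM in DMSO cells (log2 change 0.69 ± 0.10, adjusted p = 3.1e-06), beside 19 members that fell. In both comparisons every treated library had more MYC RNA than every DMSO library.

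A673 at 3 days had 319.1 CPM of MYC in treated cells and 233.5 CPM in DMSO cells (log2 change 0.45 ± 0.10, adjusted p = 0.00091), beside 11 members that rose. CHLA10 at 3 days had 397.6 CPM in treated cells and 345.7 CPM in DMSO cells, beside 20 members that fell. Its log2 change of 0.20 ± 0.10 missed the threshold (edgeR adjusted p = 0.13, and 0.0422 when the fit held the CHLA10 libraries alone). In A673 and in CHLA10 at 3 days every treated library had more MYC RNA than every DMSO library. CHLA10 at 20 days was the 1 comparison in which MYC fell, to 356.5 CPM in treated cells, against 431.5 CPM in DMSO cells (log2 change -0.28 ± 0.10, adjusted p = 0.0328), and there 3 members rose and 7 fell. That MYC call was lost without a filter on low counts and without treated replicate 2 or 3 or DMSO replicate 1 or 2, with adjusted p up to 0.187. Of the 5 comparisons, then, MYC and the members' median had the same sign in 1, A673 at 3 days, and in CHLA10 at 20 days the median was 0.00.

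**Figure D2:**
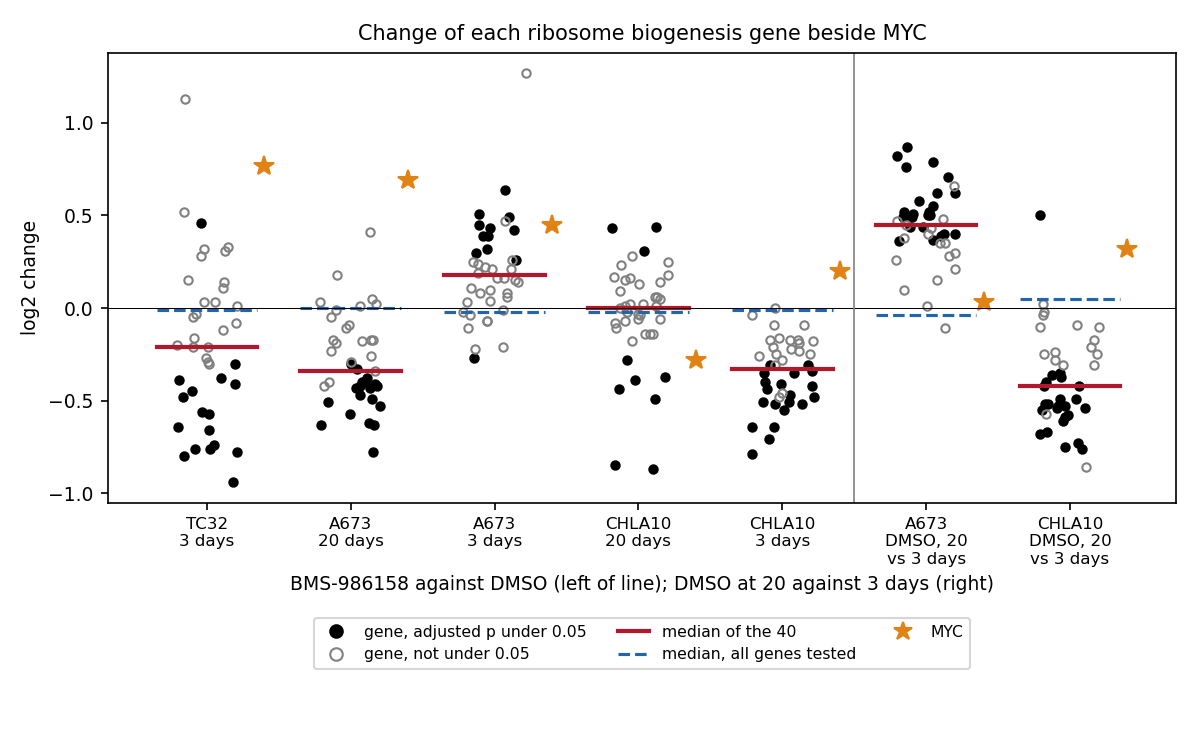
Log2 change of MYC (star) and of the 40 members (circles, filled at adjusted p under 0.05), treated over DMSO left of the line and DMSO at 20 over 3 days right of it; the solid bar is the members' median and the dashed bar that of all genes tested. MYC stands at 0.77 in TC32 and 0.69 in A673 at 20 days, where the members' medians are -0.21 and -0.34.

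Summed over the members, a total in which NCL and NPM1 weigh most, RNA averaged 6830 ± 182 CPM in treated TC32 cells and 7604 ± 130 CPM in DMSO cells (SD, n = 3 each). The sum was 7534 ± 583 CPM in treated A673 cells at 20 days and 8789 ± 1290 CPM in DMSO cells, where DMSO replicate 1 alone held 10266 CPM and the others 7882 and 8218 CPM. At 3 days A673 had 7646 ± 190 CPM in treated cells and 6589 ± 594 CPM in DMSO cells. CHLA10 had 5847 ± 397 CPM in treated cells and 5991 ± 468 CPM in DMSO cells at 20 days, and 6338 ± 301 CPM in treated cells and 7645 ± 76.6 CPM in DMSO cells at 3 days. Treated and DMSO libraries did not overlap in the sum in TC32 or in either line at 3 days, and overlapped in CHLA10 and A673 at 20 days.

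**Figure D3:**
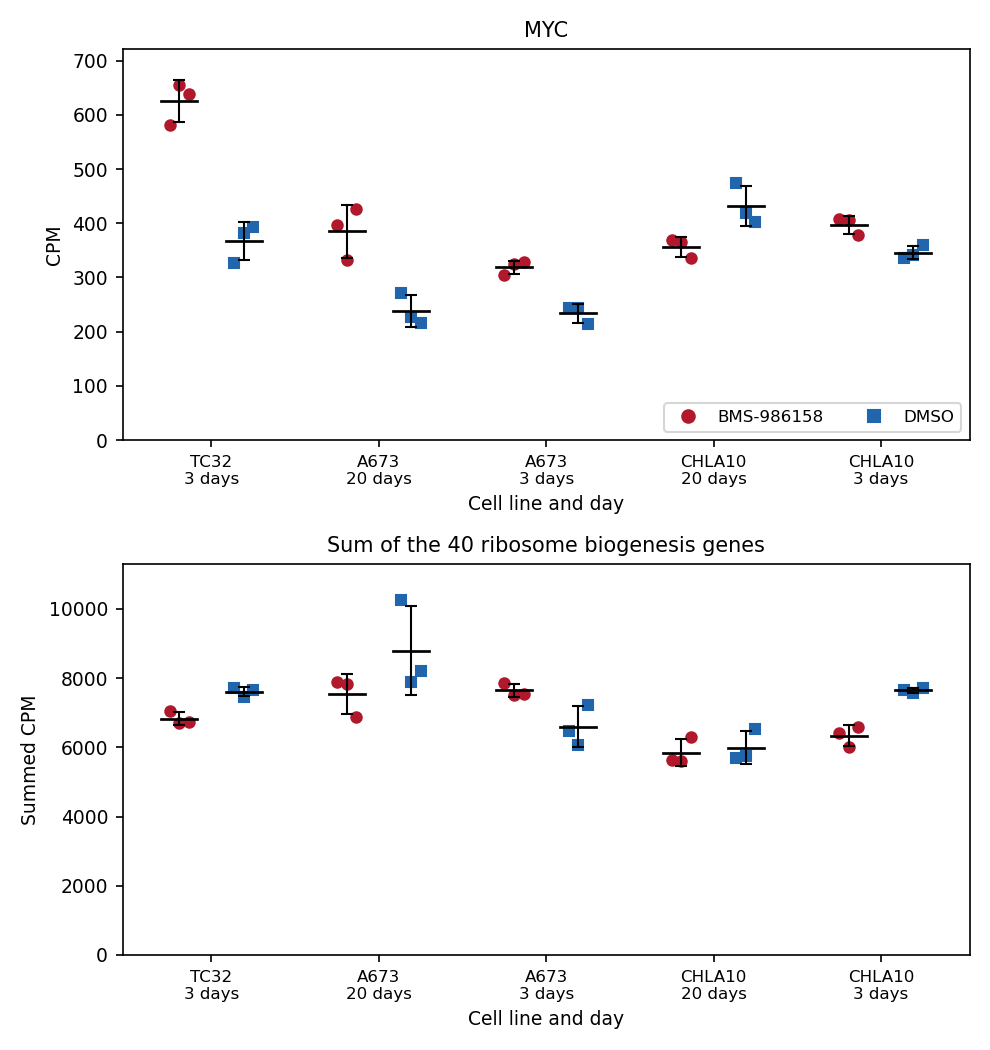
MYC (upper panel) and the summed level of the 40 members (lower panel), both in CPM, in each of the 30 libraries, with the mean and SD of each group as bars. MYC is higher in every treated than in every DMSO library of TC32, of A673 at both times and of CHLA10 at 3 days. The summed level is lower in the treated libraries of TC32 and of CHLA10 at 3 days.

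Of 13 genes of the MYC network, MYC included, 6 rose and 4 fell in TC32 (46.2% and 30.8%, against 22.3% and 22.8% of all genes tested). In A673 7 rose and 3 fell at 20 days (53.8% and 23.1%, against 19.7% and 19.9%). At 3 days 5 rose and 2 fell there (38.5% and 15.4%, against 15.3% and 18.4%). In CHLA10 1 rose and 3 fell at 20 days (7.69% and 23.1%, against 16.5% and 17.2%). At 3 days 4 rose and 1 fell there (30.8% and 7.69%, against 14.0% and 15.7%). MYCN, a close relative of MYC, fell in TC32 (-1.43), A673 at 20 days (-2.08), CHLA10 at 20 days (-2.27) and CHLA10 at 3 days (-1.75), at levels of at most 8.10 CPM. MXD1 and MXD4 code for MAX partners that oppose MYC at E-box sites. MXD4 rose by 0.75 in TC32, 2.49 in A673 at 20 days, 0.98 in A673 at 3 days and 0.89 in CHLA10 at 3 days, and MXD1 rose in the same 4 comparisons by 0.76 to 1.61. In CHLA10 at 20 days neither passed the test (MXD4 -0.23, MXD1 0.34), and MXI1, another such partner, fell by 1.13 there and rose by 0.89 in A673 at 20 days.

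An E-box, CACGTG, is the sequence that MYC and MAX bind best in vitro. Promoter windows of RefSeq (GRCh38.p14, 250 bases before to 50 after a gene's start) were found for 32 members, and 14 of them (43.8%) held CACGTG, which reads the same on both strands. It was held by 12.1% of the 12523 tested genes with a window and 8.77% of all 27305 genes with one. The windows shown run from 60 bases before to 30 bases after the start, on the gene's strand, with the motif in capitals. The genes shown are a choice among those that carry it near the start. UTP4 (position -16) and GNL3 (position 7 in a window) also carry it there and are not shown. NOP56, the called member that rose most in A673 at 3 days, is shown because its window lacks it. A match is a description of letters and not a measured binding site.
RRP9 (chr3:51941875-51941964, minus strand): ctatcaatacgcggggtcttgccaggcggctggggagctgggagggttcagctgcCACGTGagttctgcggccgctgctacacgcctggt
UTP20 (chr12:101280045-101280134, plus strand): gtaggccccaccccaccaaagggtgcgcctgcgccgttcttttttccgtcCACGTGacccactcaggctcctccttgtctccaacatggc
WDR43 (chr2:28894607-28894696, plus strand): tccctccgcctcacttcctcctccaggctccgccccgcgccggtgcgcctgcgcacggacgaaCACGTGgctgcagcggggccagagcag
FBL (chr19:39846350-39846439, minus strand): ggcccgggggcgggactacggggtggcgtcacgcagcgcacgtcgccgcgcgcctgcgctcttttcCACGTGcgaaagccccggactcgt
PES1 (chr22:30591881-30591970, minus strand): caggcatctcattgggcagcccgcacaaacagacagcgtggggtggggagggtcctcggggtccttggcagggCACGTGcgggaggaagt
MRTO4 (chr1:19251745-19251834, plus strand): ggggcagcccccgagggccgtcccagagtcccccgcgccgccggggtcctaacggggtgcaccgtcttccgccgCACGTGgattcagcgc
NOP14 (chr4:2963377-2963466, minus strand): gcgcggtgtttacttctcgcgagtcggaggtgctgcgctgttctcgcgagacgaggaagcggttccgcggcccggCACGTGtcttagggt
NOP56 (chr20:2652572-2652661, plus strand): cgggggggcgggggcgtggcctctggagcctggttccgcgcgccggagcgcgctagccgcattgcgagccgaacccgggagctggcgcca

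In these letters the motif begins at position -5 in RRP9, -10 in UTP20, 4 in WDR43, 7 in FBL, 14 in PES1, 15 in MRTO4 and 16 in NOP14, counted from 1 at the start. Members with and without the motif had similar changes in TC32 (median log2 change -0.21 in the 14 with it and -0.21 in the 18 without it) and in A673 at 20 days (-0.34 and -0.40). In A673 at 3 days the medians were 0.23 with the motif and 0.08 without it, in CHLA10 at 20 days -0.05 and -0.01, and in CHLA10 at 3 days -0.41 and -0.31. These differences were not tested.

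Among the C/D box proteins, NOP56 (ENSG00000101361, chr20:2652145-2658393, GRCh38), a core protein of the methylation-guiding particles, stood apart as the member called higher in 2 comparisons and lower in none. NOP56 RNA was 458, 459 and 464 CPM in treated A673 cells at 3 days, against 282, 277 and 327 CPM in DMSO cells, a log2 change of 0.64 ± 0.10 (n = 3 each, edgeR adjusted p = 1.25e-05). All treated libraries lay above all DMSO libraries, and the call held in every alternative run.

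In CHLA10 at 20 days NOP56 was 324, 322 and 351 CPM in treated cells and 241, 257 and 306 CPM in DMSO cells (log2 change 0.31 ± 0.10, edgeR adjusted p = 0.0137), a call lost without treated replicate 3 (0.0636) or DMSO replicates 1 (0.0998) or 2 (0.0627). The 20-day A673 groups overlapped (log2 change 0.01, not called). In TC32 its change of -0.21 missed the threshold (adjusted p = 0.0753) and was called under RLE scaling (0.0457), DESeq2 (0.0359), the replicate block, the fit of TC32 alone and without treated replicate 1 or the 4 distant libraries. NOP58, the other scaffold of the same particle, fell in TC32 (-0.41) and CHLA10 at 3 days (-0.34; lost without treated replicate 1 or 2 or DMSO replicate 1 or 3).

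FBL (fibrillarin, ENSG00000105202, chr19:39834458-39846414), the methyltransferase of the C/D box particle, had 352, 259 and 262 CPM in treated TC32 cells, against 553, 441 and 527 CPM in DMSO cells. Every treated value lay below every DMSO value, and the log2 change was -0.80 ± 0.12 (n = 3 each, edgeR adjusted p = 7.3e-06). FBL also fell in A673 at 20 days by 0.33, a call lost without treated replicate 1 or 2 or DMSO replicate 1 or 3 and in the fit of A673 alone.

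H/ACA box genes gave the most uniform response in TC32 and in CHLA10 at 3 days, where all 3 fell. GAR1 (ENSG00000109534, chr4:109815510-109824740), a core protein of the pseudouridylation particles, fell in 4 of 5 comparisons. GAR1 RNA was 41.2, 33.8 and 36.3 CPM in treated TC32 cells, against 61.4, 60.9 and 65.7 CPM in DMSO cells (log2 change -0.76 ± 0.10, edgeR adjusted p = 9.05e-07). In CHLA10 at 3 days it was 47.2, 38.6 and 39.2 CPM in treated cells and 60.3, 61.5 and 61.7 CPM in DMSO cells (log2 change -0.55 ± 0.10, adjusted p = 0.000113).

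At 20 days GAR1 was 25.0, 28.6 and 30.1 CPM in treated A673 cells and 45.2, 36.1 and 36.6 CPM in DMSO cells (log2 change -0.49, edgeR adjusted p = 0.000276). It was 38.7, 37.9 and 39.3 CPM in treated CHLA10 cells and 47.5, 50.6 and 53.4 CPM in DMSO cells (log2 change -0.39, adjusted p = 0.00354). In each of these 4 comparisons the groups did not overlap and the call held in every alternative run. In A673 at 3 days GAR1 was 40.8, 38.5 and 37.8 CPM in treated cells, against 34.2, 33.1 and 30.1 CPM in DMSO cells, higher by 0.26 (adjusted p = 0.0426). That call was lost in most alternatives, DESeq2 (0.0861) included.

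DKC1 (dyskerin), the pseudouridine synthase of the same particle, fell in TC32 (-0.30) and CHLA10 at 3 days (-0.35) and rose in A673 at 3 days (0.30). The A673 call was lost under RLE scaling (edgeR adjusted p = 0.053), in the fit of A673 alone (0.0845) and without treated replicate 1 or DMSO replicate 2, and the TC32 call without a filter on low counts and without treated replicate 1. NHP2, the third core protein, fell in TC32 (-0.56), A673 at 20 days (-0.30) and CHLA10 at 3 days (-0.31). Its call in A673 was lost without treated replicate 1 or DMSO replicate 1, and that in CHLA10 without treated replicate 1 or 2 or DMSO replicate 1 or 3.

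**Figure D4:**
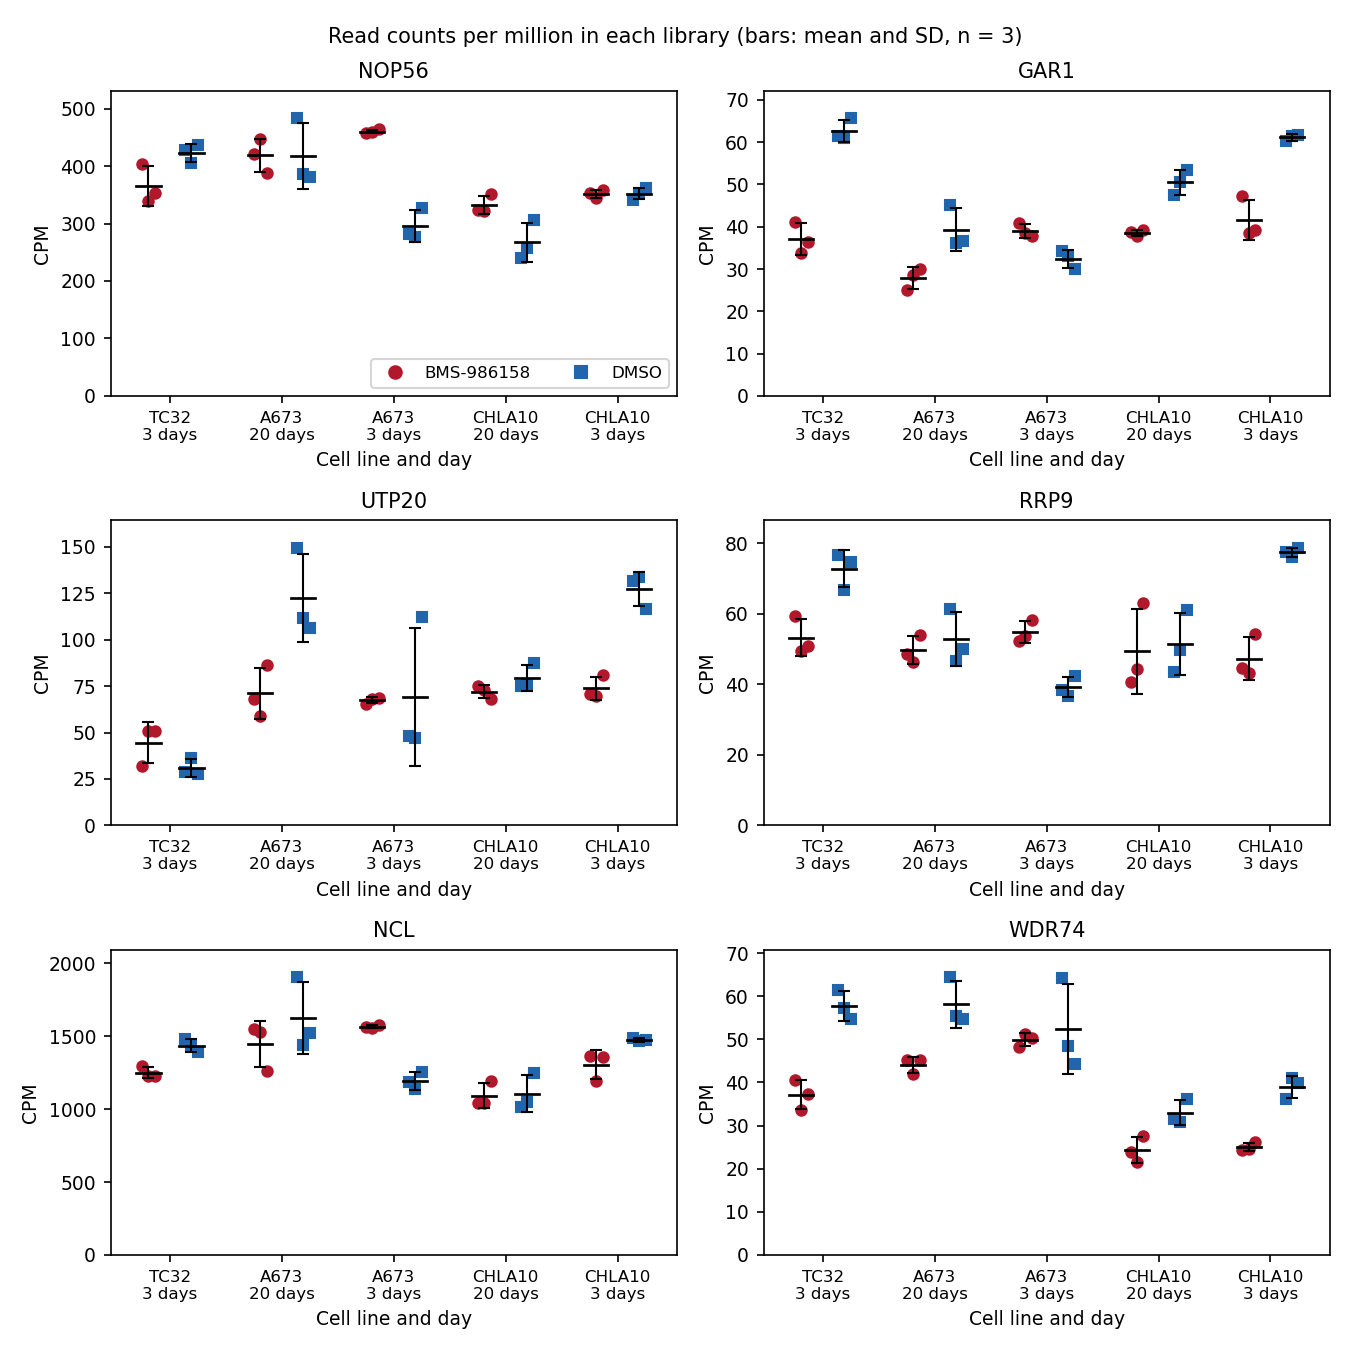
CPM of NOP56, GAR1, UTP20, RRP9, NCL and WDR74 in each library of the 5 treatment comparisons, treated beside DMSO, with the group mean and SD as bars. GAR1 and WDR74 lie lower in treated cells in 4 comparisons, and UTP20 in DMSO A673 cells at 3 days has replicate 3 at 112 CPM, above the others.

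Of the RNA polymerase I subunits among the 40, POLR1A, the largest, passed the test in none of the 5 comparisons with all libraries. Without the 4 distant libraries it was called in each, lower in A673 at 20 days (-0.41, edgeR adjusted p = 0.000206) and CHLA10 at 3 days (-0.25), and higher in TC32 (0.31), A673 at 3 days (0.62, adjusted p = 1.24e-06) and CHLA10 at 20 days (0.30). POLR1B, the next largest, fell in A673 at 20 days (-0.38), a call lost in the fit of A673 alone and without treated replicate 1 or 2 or DMSO replicate 1. POLR1A in DMSO A673 cells at 3 days was 91.9, 84.5 and 178 CPM, with replicate 3 far above the others, against 131, 130 and 134 CPM in treated cells. Without that library the log2 change was 0.58 (adjusted p = 0.000215), and that of POLR1B 0.49 (adjusted p = 0.0029).

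TCOF1 (treacle, ENSG00000070814, chr5:150357629-150400308), which promotes transcription of the ribosomal RNA genes, was the third gene of this group and fell in 3 comparisons. TCOF1 RNA was 126, 109 and 120 CPM in treated TC32 cells, against 215, 195 and 193 CPM in DMSO cells (log2 change -0.76 ± 0.12, edgeR adjusted p = 5.85e-06). In A673 at 20 days it was 202, 201 and 205 CPM in treated cells and 315, 270 and 278 CPM in DMSO cells (log2 change -0.51, adjusted p = 0.000811). In CHLA10 at 3 days it was 155, 164 and 181 CPM in treated cells and 229, 239 and 241 CPM in DMSO cells (log2 change -0.51, adjusted p = 0.00135). The groups did not overlap in these 3 comparisons. In A673 at 3 days (-0.07) and CHLA10 at 20 days (0.01) the groups overlapped and no call was made.

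The scaffold proteins split. NCL (nucleolin), one of the most abundant nucleolar proteins, was 1560, 1558 and 1578 CPM in treated A673 cells at 3 days, against 1187, 1135 and 1255 CPM in DMSO cells (log2 change 0.39 ± 0.10, edgeR adjusted p = 0.00332), with no overlap. Its changes elsewhere, -0.20 in TC32, -0.17 in A673 at 20 days, -0.02 in CHLA10 at 20 days and -0.18 in CHLA10 at 3 days, missed the threshold; in TC32 it was called with the replicate block and without the 4 distant libraries. NOLC1, a chaperone of small nucleolar ribonucleoproteins, also rose in A673 at 3 days (0.39), a call lost without DMSO replicate 1 or 2 and in the fit of A673 and its own controls alone. In CHLA10 at 20 days NOLC1 was called higher with the replicate block (0.26) and without DMSO replicate 3 (0.40) or the 4 distant libraries (0.35). Without those 4 it was called lower in CHLA10 at 3 days (-0.22).

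NPM3, a relative of nucleophosmin, fell at 20 days in A673, to 52.0, 52.2 and 51.2 CPM in treated cells, against 85.7, 76.0 and 76.9 CPM in DMSO cells (log2 change -0.62 ± 0.10, edgeR adjusted p = 1.91e-05). It fell by 0.66 in TC32, and by 0.27 in A673 at 3 days, where the groups overlapped and the call was lost without a filter, in the fit of A673 alone and without treated replicate 2 or 3 or DMSO replicate 1 or 2. NPM1, nucleophosmin, fell in CHLA10 at 20 days (-0.28), a call lost without a filter on low counts and without treated replicate 1 or 2 or DMSO replicate 1 or 2. It was also called lower in CHLA10 at 3 days, by 0.22 to 0.25, under RLE scaling, DESeq2, the replicate block, the fit of CHLA10 alone and without the 4 distant libraries, and in A673 at 20 days with DESeq2 (-0.22). DDX21, an RNA helicase of ribosomal RNA transcription and processing, fell in CHLA10 at 3 days (-0.52; lost without treated replicate 1 or 2 or DMSO replicate 3). It also fell in A673 at 20 days (-0.43; lost in the fit of A673 alone and without treated replicate 3, DMSO replicate 1 or the 4 distant libraries). In TC32 DDX21 was called higher with the replicate block (0.30) and without treated replicate 1 (0.47).

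Of the 11 small-subunit factors, 5 fell in CHLA10 at 3 days (45.5%, against 15.7% of all genes tested). In A673 5 fell at 20 days (45.5%, against 19.9%) and 4 rose at 3 days (36.4%, against 15.3%). In TC32 1 rose and 1 fell, each 9.09%, under the 22.3% and 22.8% of all genes. In CHLA10 at 20 days 1 rose (9.09%, against 16.5%) and 2 fell (18.2%, near the 17.2% of all genes). RRP9 (ENSG00000114767, chr3:51933430-51941941), a protein of the U3 particle that guides early cleavages of the precursor, was 44.5, 43.1 and 54.2 CPM in treated CHLA10 cells at 3 days, against 77.6, 76.1 and 78.7 CPM in DMSO cells (log2 change -0.71 ± 0.14, edgeR adjusted p = 0.00025). In TC32 it was 59.2, 49.5 and 50.9 CPM in treated cells and 76.7, 66.8 and 74.8 CPM in DMSO cells (log2 change -0.45, adjusted p = 0.00897). In A673 at 3 days the order was turned round, with 52.3, 53.8 and 58.2 CPM in treated cells and 38.3, 36.8 and 42.2 CPM in DMSO cells (log2 change 0.49, adjusted p = 0.00746). None of these groups overlapped, and all 3 calls held in every alternative run.

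UTP20 (ENSG00000120800, chr12:101280109-101386616), a large scaffold protein of the small-subunit processome, was 70.7, 69.8 and 80.7 CPM in treated CHLA10 cells at 3 days, against 132, 134 and 117 CPM in DMSO cells (log2 change -0.79 ± 0.23, edgeR adjusted p = 0.0118). In A673 at 20 days it was 68.2, 59.0 and 86.1 CPM in treated cells and 149, 111 and 106 CPM in DMSO cells (log2 change -0.78, adjusted p = 0.00896), a call lost without treated replicate 2 (0.0568) or DMSO replicate 1 (0.062). At 3 days A673 had 65.5, 68.2 and 68.6 CPM in treated cells, against 48.2, 47.3 and 112 CPM in DMSO cells, with DMSO replicate 3 alone above the treated libraries. The log2 change there was -0.04 (not called), 0.50 without that library (adjusted p = 0.024) and 0.54 without the 4 distant libraries (adjusted p = 0.00586). In TC32 UTP20 was called higher in the fit of TC32 alone (0.51) and without treated replicate 1 (0.72) or the 4 distant libraries (0.50).

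NOB1, the endonuclease that makes the end of mature 18S rRNA, showed the largest call among the well-counted members at 20 days in CHLA10, with 10.7, 11.1 and 10.7 CPM in treated cells and 21.6, 18.4 and 18.6 CPM in DMSO cells (log2 change -0.85 ± 0.12, edgeR adjusted p = 2.47e-06). It also fell in A673 at 20 days (-0.40) and in CHLA10 at 3 days (-0.31; lost in each fit with 1 library left out, with the replicate block and without a filter). HEATR1, a processome protein that also supports RNA polymerase I, fell in A673 at 20 days (-0.63) and CHLA10 at 20 days (-0.37; lost in each fit with 1 library left out, without the 4 distant libraries and without a filter). HEATR1 rose in TC32 (0.46), where the groups overlapped and the call was lost without treated replicate 2 or 3 or DMSO replicate 1.

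WDR43, another processome protein, fell in A673 at 20 days (-0.41; lost without DMSO replicate 1) and CHLA10 at 3 days (-0.42; lost without treated replicate 2) and was higher in A673 at 3 days (0.32; lost in most alternatives, DESeq2 included). NOP14 and the helicase DDX10 rose in A673 at 3 days alone, by 0.43 and 0.42. RRP12, a pre-40S export factor, was higher in CHLA10 at 20 days alone (0.43; lost without treated replicate 3 or DMSO replicate 1 or 2). BYSL, which binds late pre-40S particles, fell in A673 at 20 days (-0.42; lost without treated replicate 3 or DMSO replicate 1). It also fell in CHLA10 at 3 days (-0.35; lost without a filter and in each fit with 1 library left out other than treated replicate 3). UTP4 and UTP15, early processome proteins, were called in no comparison with all libraries in the edgeR fit. UTP15 was called lower under RLE scaling, DESeq2 and the replicate block in CHLA10 at 3 days (-0.48, -0.48 and -0.47) and in A673 at 20 days (-0.46, -0.46 and -0.43). It was also called in CHLA10 without treated replicate 3 (-0.59) or the 4 distant libraries (-0.47), and in A673 without treated replicate 2 (-0.54). Without the 4 distant libraries both were higher in A673 at 3 days (UTP4 0.31, UTP15 0.37) and UTP4 was lower in CHLA10 at 3 days (-0.31), as it was in the fit of CHLA10 alone (-0.30).

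Large-subunit factors, the largest role with 15 of the 40 members, also made up the largest share of the lower calls. In TC32 8 of 15 were lower (53.3%, against 22.8% of all genes tested) and in A673 at 20 days 7 (46.7%, against 19.9%). In CHLA10 at 3 days 9 of 15 were lower, against 15.7% of all genes. The 3 of 15 lower in CHLA10 at 20 days were near the 17.2% of all genes. The 2 of 15 higher in A673 at 3 days (13.3%) were under the 15.3% of all genes. By rate the 3 H/ACA box genes were lower more often, with all 3 in TC32 and in CHLA10 at 3 days and 66.7% in A673 at 20 days. WDR74 (ENSG00000133316, chr11:62832342-62841809), which acts in pre-60S maturation, fell in 4 comparisons. It was 40.5, 33.6 and 37.3 CPM in treated TC32 cells, against 61.4, 57.2 and 54.6 CPM in DMSO cells (log2 change -0.64 ± 0.12, edgeR adjusted p = 5.93e-05). It was 24.2, 24.6 and 26.2 CPM in treated CHLA10 cells at 3 days, against 36.2, 41.0 and 39.9 CPM in DMSO cells (log2 change -0.64, adjusted p = 0.000121). At 20 days it fell by 0.40 in A673 and by 0.44 in CHLA10. Treated and DMSO libraries did not overlap in these 4 comparisons and the calls held in every alternative run. In A673 at 3 days the groups overlapped (-0.07).

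BOP1, PES1 and WDR12 form the PeBoW complex that processes the 28S and 5.8S precursors, and they did not move as a unit. WDR12 was 54.0, 50.4 and 47.7 CPM in treated CHLA10 cells at 20 days, against 73.7, 75.1 and 65.4 CPM in DMSO cells (log2 change -0.49 ± 0.10, edgeR adjusted p = 0.000426). It fell by 0.47 in A673 at 20 days and by 0.44 in CHLA10 at 3 days. PES1 fell in TC32 (-0.57) and CHLA10 at 3 days (-0.48). BOP1 fell in TC32 (-0.38; lost without treated replicate 2 or 3 or DMSO replicate 1) and rose in CHLA10 at 20 days (0.44), where the groups overlapped and the call was lost without treated replicate 3 or DMSO replicate 1 or 2.

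MRTO4, a pre-60S factor related to a ribosomal stalk protein, was 92.9, 74.1 and 77.8 CPM in treated TC32 cells, against 142, 125 and 142 CPM in DMSO cells (log2 change -0.74 ± 0.14, edgeR adjusted p = 8.75e-05). MRTO4 was 86.1, 86.9 and 109 CPM in treated CHLA10 cells at 3 days, against 144, 149 and 147 CPM in DMSO cells (log2 change -0.64, adjusted p = 0.000771). No treated value reached a DMSO value in either. It also fell in A673 at 20 days (-0.43; lost in the fit of A673 alone and without treated replicate 3 or DMSO replicate 1). NOP16, also a pre-60S protein, fell by 0.78 in TC32, by 0.53 in A673 at 20 days (lost without DMSO replicate 1) and by 0.51 in CHLA10 at 3 days. BRIX1, which acts in pre-60S assembly, fell by 0.48, 0.57 and 0.47 in the same order. Its TC32 call was lost without treated replicate 3 and its CHLA10 call without treated replicate 2 or DMSO replicate 1.

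GNL3 (nucleostemin), a nucleolar GTPase, rose in A673 at 3 days alone (0.45, edgeR adjusted p = 0.00309). RRS1, which helps bring the 5S particle to the large subunit, was higher there too (0.51; lost in most alternatives) and lower in CHLA10 at 3 days (-0.52; lost without a filter and in each fit with 1 library left out other than treated replicate 3). GRWD1, a chaperone of a large-subunit protein, fell in A673 at 20 days (-0.42) and CHLA10 at 3 days (-0.41), each call lost in most fits with 1 library left out. LYAR fell in TC32 (-0.39) and CHLA10 at 3 days (-0.40), also lost in most such fits. In A673 at 20 days LYAR was called lower under RLE scaling (-0.38), DESeq2 (-0.38), no filter (-0.38) and the replicate block (-0.33). It was also called there in the fit of A673 alone (-0.34) and without DMSO replicate 2 (-0.43) or the 4 distant libraries (-0.38). PPAN, at 2.07 to 13.0 CPM, was lower in TC32 (-0.94), A673 at 20 days (-0.63; lost with the replicate block, in the fit of A673 alone and without DMSO replicate 1 or treated replicate 1 or 2) and CHLA10 at 20 days (-0.87; lost without DMSO replicate 1). NOP2, DDX18 and URB2 were called in no comparison with all libraries. Without A673 DMSO replicate 3, URB2 was higher in A673 at 3 days by 1.04 (edgeR adjusted p = 8.66e-06), and it was called there with the replicate block too (0.60, adjusted p = 0.0286). Without the 4 distant libraries URB2 was higher in A673 at 3 days (1.08), TC32 (0.30) and CHLA10 at 20 days (0.48) and lower in CHLA10 at 3 days (-0.27), and DDX18 was higher in A673 at 3 days (0.28).

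The counts of called members depended on single libraries. Of the 20 lower in CHLA10 at 3 days, 10 were called in every alternative and every fit with 1 library left out. The count was 13 without treated replicate 1, 10 without treated replicate 2, 12 without DMSO replicate 1 or 3 and 27 without the 4 distant libraries. Of the 19 lower in A673 at 20 days 8 were, and the count was 8 without DMSO replicate 1 and 21 without the 4 distant libraries. Of the 16 lower in TC32 12 were, and the count stayed between 13 and 17 with 1 library left out and was 22 without the 4 distant libraries. None of those 4 libraries is in TC32 or in CHLA10 at 3 days. The members' medians there were -0.22 and -0.33 in that setting, against -0.21 and -0.33 with all libraries. All groups share 1 estimate of spread, and the 4 were picked for their distance. Calls gained by leaving them out are therefore no independent support. Of the 11 higher in A673 at 3 days 6 were. The count was 6 without DMSO replicate 2, 17 without DMSO replicate 3 and 23 without the 4 distant libraries. In CHLA10 at 20 days 4 of the 7 lower and 0 of the 3 higher were. The lower count was 4 without DMSO replicate 1 and 6 without the 4 distant libraries. The higher count was 0 without treated replicate 3, DMSO replicate 1 or DMSO replicate 2, 5 without DMSO replicate 3 and 8 without the 4 distant libraries. The 1 member higher in TC32, HEATR1, gave a count of 4 without treated replicate 1, of 5 without the 4 distant libraries and of 0 without treated replicate 2, treated replicate 3 or DMSO replicate 1. The 1 lower in A673 at 3 days, NPM3, gave 0 without treated replicate 2, treated replicate 3 or DMSO replicate 1 and 2 without DMSO replicate 3 or without the 4 distant libraries.

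The lists of members lower in treated cells shared genes across lines. CHLA10 at 3 days and TC32 shared 12, of the 20 on the CHLA10 list and of the 16 on the TC32 list. CHLA10 at 3 days and A673 at 20 days shared 14, of 20 and of 19. Of the 11 members higher in A673 at 3 days, DKC1, GAR1, WDR43, RRP9 and RRS1 were lower in CHLA10 at 3 days and DKC1, GAR1 and RRP9 were lower in TC32. Over the 5 comparisons 27 members were lower in at least 1, and POLR1A, UTP4, UTP15, NOP2, DDX18 and URB2 were called in none. Of those 6, NOP2 was also called in no alternative of these comparisons, and the others in at least 1.

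Tests of the differences between lines asked whether these effects were unlike. The treatment effect in TC32 was lower than in A673 at 3 days for 20 members and higher for 0 (11.8% and 12.4% of all genes tested), with a median difference of -0.42 over the members and 0.04 over all genes. GAR1 differed by -1.02 ± 0.14 (edgeR adjusted p = 1.83e-05), FBL by -1.06 ± 0.17 (adjusted p = 0.0001) and NOP56 by -0.85 ± 0.14 (adjusted p = 8.89e-05). At an unadjusted p under 0.05, 23 members were lower and 1 higher, DESeq2 called 19 lower and 0 higher, and 29 were lower and 0 higher without the 4 distant libraries. Of the members 1 was called higher without A673 DMSO replicate 1 or treated TC32 replicate 1.

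The effect in A673 exceeded that in CHLA10 at 3 days for 17 members, with 0 the other way (4.85% higher and 5.65% lower of all genes tested; 30 and 0 members at an unadjusted p under 0.05, and 17 and 0 with DESeq2), and a median difference of 0.52 over the members. RRP9 differed by 1.20 ± 0.20 (edgeR adjusted p = 0.000258) and GAR1 by 0.82 ± 0.14 (adjusted p = 0.000472). The count was 9 without treated CHLA10 replicate 1 or CHLA10 DMSO replicate 3, 8 without treated CHLA10 replicate 2 or A673 DMSO replicate 2, 26 without A673 DMSO replicate 3, and 34 without the 4 distant libraries.

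TC32 and CHLA10 at 3 days differed for fewer members, 4 higher and 2 lower in TC32 (7.34% and 6.47% of all genes tested), with a median difference of 0.09. UTP20 was the largest, at 1.31 ± 0.33 (edgeR adjusted p = 0.0107), a call that held in every alternative run, and DDX21, HEATR1 and WDR43 were the other 3 higher ones. Of the higher calls 2 were left without treated CHLA10 replicate 2, and 1 without treated TC32 replicate 2 or 3 or TC32 DMSO replicate 1, and 10 were made without the 4 distant libraries, where 3 were lower. The 2 lower ones were FBL (-0.63) and NPM3 (-0.44), which were not called in every fit with 1 library left out. For MYC the difference was 0.57 ± 0.14 (edgeR adjusted p = 0.00811). Exon length ran with the members' differences here and between TC32 and A673, as given below.

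At 20 days the effect in A673 was below that in CHLA10 for NHP2 (-0.46), TCOF1 (-0.51), NPM3 (-0.64), BYSL (-0.51) and GRWD1 (-0.71) and above it for NOB1 (0.44), which is 5 members lower and 1 higher where 10.5% and 11.4% of all genes were. MYC differed the other way, by 0.97 ± 0.14 (edgeR adjusted p = 1.34e-05). The lower count was 3 without treated CHLA10 replicate 3, 2 without CHLA10 DMSO replicate 1, 1 without CHLA10 DMSO replicate 2 or A673 DMSO replicate 1, 10 without CHLA10 DMSO replicate 3 and 12 without the 4 distant libraries. The call of NOB1 was lost with DESeq2 and in most other alternatives.

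The 20-day and 3-day effects differed in opposite senses in the 2 lines that had both times. Day and harvest cannot be told apart, and the DMSO cells enter these differences too. Summed over the members, A673 had 7646 CPM at 3 days and 7534 CPM at 20 days in treated cells, and 6589 and 8789 CPM in DMSO cells. CHLA10 had 6338 and 5847 CPM in treated cells, and 7645 and 5991 CPM in DMSO cells. In A673 the 20-day effect was below the 3-day effect for all 40 members, with 10 called lower and 0 higher (2.93% and 4.33% of all genes tested; 28 and 0 members at an unadjusted p under 0.05, and 11 and 0 with DESeq2) and a median difference of -0.47, against 0.02 over all genes. GAR1 differed by -0.76 ± 0.14 (edgeR adjusted p = 0.00147) and NOP56 by -0.63 ± 0.14 (adjusted p = 0.00458), and these were the 2 of the 10 calls that held in every alternative run. The count was 6 without treated 3-day replicate 1 or 2, 4 without treated 3-day replicate 3, 6 without 3-day DMSO replicate 1 and 5 without 3-day DMSO replicate 2. It was 21 without 3-day DMSO replicate 3, 6 without treated 20-day replicate 1, 3 without 20-day DMSO replicate 1 and 29 without the 4 distant libraries.

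In CHLA10 the 20-day effect was above the 3-day effect for 35 of 40 members, with a median difference of 0.35. NHP2 (0.46), RRP9 (0.65) and BOP1 (0.61) were called, 3 higher and 0 lower (3.35% and 2.97% of all genes tested; 16 and 1 at an unadjusted p under 0.05, and 6 and 1 with DESeq2). No member was called in every alternative. The count was 0 without 3-day treated replicate 1 or 2, any 3-day DMSO replicate, treated 20-day replicate 3 or 20-day DMSO replicate 1 or 2, 6 without treated 3-day replicate 3, 13 without 20-day DMSO replicate 3, 17 (with 1 lower) without the 4 distant libraries and 11 with the replicate number as a block. MYC moved down, by 0.48 ± 0.14 (edgeR adjusted p = 0.0403), a call lost in every fit with 1 library left out except those without treated 3-day replicate 3 and 20-day DMSO replicate 3.

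The DMSO cells of the 2 times differed from each other, and these same libraries are the controls of the treatment comparisons. In A673 DMSO cells 23 members were higher at 20 days than at 3 days and 0 lower (3.02% and 3.08% of all genes tested; 33 and 0 at an unadjusted p under 0.05, and 26 and 0 with DESeq2), with a median log2 change of 0.45, against -0.04 over all genes. In CHLA10 DMSO cells 23 were lower at 20 days and 1, NOB1 (0.50), was higher (7.06% and 8.05% of all genes tested), with a median of -0.42, against 0.05 over all genes. NOP56, for instance, was 483, 387 and 381 CPM in 20-day A673 DMSO cells, against 282, 277 and 327 CPM in 3-day ones. It was 241, 257 and 306 CPM in 20-day CHLA10 DMSO cells, against 342, 353 and 362 CPM in 3-day ones. MYC in DMSO cells changed by 0.03 in A673 (not called) and rose by 0.32 in CHLA10 (edgeR adjusted p = 0.0285).

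The A673 DMSO count was 0 without 3-day DMSO replicate 1 or 2 or 20-day DMSO replicate 1 (33, 29 and 26 at an unadjusted p under 0.05), 33 without the 4 distant libraries and 0 in the fit of A673 alone (32 at an unadjusted p under 0.05). Of the 23 calls 0 held in every alternative run. The CHLA10 DMSO count of lower members was 14, 13 and 15 without 3-day DMSO replicates 1, 2 and 3 and 12 and 13 without 20-day DMSO replicates 1 and 2, and 31 without the 4 distant libraries. In CHLA10 12 of the 23 calls, DKC1, TCOF1, NCL and RRP9 among them, held in every alternative run.

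For the other genes of the pathway, listed by role, counts are to be read against all genes tested, of which 22.3% rose and 22.8% fell in TC32, 19.7% and 19.9% in A673 at 20 days, 15.3% and 18.4% in A673 at 3 days, 16.5% and 17.2% in CHLA10 at 20 days, and 14.0% and 15.7% in CHLA10 at 3 days. Of 50 other large-subunit factors, 6 rose and 11 fell in TC32 and 2 rose and 15 fell in A673 at 20 days. Of the same list 14 rose and 2 fell in A673 at 3 days, 4 rose and 5 fell in CHLA10 at 20 days, and 1 rose and 13 fell in CHLA10 at 3 days. Of 52 other small-subunit factors the counts were 11 and 18 in TC32, 3 and 14 in A673 at 20 days, 15 and 2 in A673 at 3 days, 9 and 5 in CHLA10 at 20 days, and 2 and 8 in CHLA10 at 3 days. In TC32 12% of the large-subunit list rose and 22% fell, and in CHLA10 at 20 days 8% and 10%, shares at or under those of all genes. The shares that fell were 30% in A673 at 20 days and 26% in CHLA10 at 3 days, and 28% rose in A673 at 3 days. Of the small-subunit list 34.6% fell in TC32, 26.9% fell in A673 at 20 days, 28.8% rose in A673 at 3 days, and 17.3% rose and 9.62% fell in CHLA10 at 20 days, while the 15.4% that fell in CHLA10 at 3 days is near the share of all genes. WDR18, of the large-subunit list, fell by 0.80 in TC32, while URB1, a partner of URB2 in yeast, rose by 1.06 there.

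Among 20 other RNA polymerase I genes, 5 rose and 4 fell in TC32, 2 and 2 in A673 at 20 days, 8 and 1 in A673 at 3 days, 4 and 3 in CHLA10 at 20 days, and 3 and 2 in CHLA10 at 3 days. POLR2L, a subunit shared by the RNA polymerases, rose by 0.85 in A673 at 20 days, 1.03 in A673 at 3 days and 0.74 in CHLA10 at 20 days, and POLR1G, another subunit, by 0.72 in A673 at 3 days. POLR1H, a small subunit of the enzyme that acts in RNA cleavage, fell in all 5 comparisons, by 0.76 in TC32, 0.69 in A673 at 20 days, 0.70 in A673 at 3 days, 0.70 in CHLA10 at 20 days and 0.49 in CHLA10 at 3 days. BAZ2A, a silencer of ribosomal RNA genes, rose by 1.03 in TC32. Of 13 other genes of the small nucleolar particles and their assembly, 3 rose and 5 fell in TC32, 1 and 6 in A673 at 20 days, 4 and 1 in A673 at 3 days, 4 and 1 in CHLA10 at 20 days, and 2 and 2 in CHLA10 at 3 days. RPAP3, a chaperone cofactor of their assembly, rose in TC32 (0.38), A673 at 20 days (0.29), A673 at 3 days (0.52) and CHLA10 at 3 days (0.39).

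Genes of the finished ribosome had a median change of the same sign as the assembly factors in TC32 and A673 at 3 days, and of the opposite sign in A673 at 20 days and CHLA10 at 3 days. Of 79 cytosolic ribosomal protein genes, which have many near-identical pseudogenes and are uncertain, 24 rose (30.4%) and 0 fell in CHLA10 at 3 days (median log2 change 0.26), where all 40 assembly genes lay below 0. In A673 at 20 days 11 rose (13.9%, under the 19.7% of all genes) and 1 fell (median 0.15). At 3 days 14 rose there (17.7%, near the 15.3% of all genes) and 0 fell (median 0.23). In TC32 1 rose and 18 fell (22.8%, the share of all genes; median -0.17), and in CHLA10 at 20 days 5 rose and 10 fell (6.33% and 12.7%, under the shares of all genes; median -0.10). Of 9 tested long RNAs that host small nucleolar RNAs, 3 rose and 2 fell in TC32, 1 and 3 in A673 at 20 days, 3 and 1 in A673 at 3 days, 1 and 5 in CHLA10 at 20 days, and 1 and 0 in CHLA10 at 3 days. SNHG12 rose in all 5, by 0.39 to 0.99. SNHG8 fell in A673 at 20 days (-0.61), A673 at 3 days (-0.52) and CHLA10 at 20 days (-0.68), and EPB41L4A-AS1 fell in CHLA10 at 20 days (-1.06) and rose in TC32 (0.69).

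A pair of other gene groups was set beside these counts and did not always go the same way as the members. Of 15 proliferation genes, 13 fell in TC32, 10 in A673 at 20 days, 4 in A673 at 3 days and 9 in CHLA10 at 3 days, with 0 higher in each, and 5 rose with 0 lower in CHLA10 at 20 days. In DMSO cells of CHLA10 11 of the 15 proliferation genes were lower at 20 than at 3 days, where 7.06% of all genes tested were. The amino acid stress genes, 16 in all, summed to 1540, 1560 and 1554 CPM in treated A673 cells at 3 days, against 6165, 4742 and 1990 CPM in DMSO cells, and 15 of them fell there. In the other comparisons 0 rose and 7 fell in TC32, 1 and 6 in A673 at 20 days, 4 and 3 in CHLA10 at 20 days, and 1 and 5 in CHLA10 at 3 days. In that order the shares that fell were 43.8%, 37.5%, 18.8% and 31.2%, against 22.8%, 19.9%, 17.2% and 15.7% of all genes tested. In CHLA10 at 20 days 25.0% rose, against 16.5% of all genes. DMSO replicate 3, the low one, had 2.00% mitochondrial counts where the other DMSO libraries had 5.31% and 5.53%, and its summed level of the 40 members was 7228 CPM, against 6484 and 6055 CPM in the others. The part of growth state or stress in the members' changes was not tested.

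Transcript length ran with the change in TC32 and not clearly elsewhere. Over the 38 members other than NOP2 and PPAN, Spearman's rho between annotated exon length and log2 change was 0.53 in TC32, -0.02 in A673 at 20 days, -0.17 in A673 at 3 days, 0.10 in CHLA10 at 20 days and 0.12 in CHLA10 at 3 days. These are descriptions across genes that share the same libraries. Over all genes with a mean of at least 10 CPM it was 0.42 in TC32 and between -0.05 and 0.10 in the others. In TC32 the 19 shorter members had a median log2 change of -0.38 and the 19 longer ones -0.12, and the median exon length was 4225 bases. Length also ran with the differences between lines that involve TC32. Over the members rho was 0.51 for TC32 less A673 and 0.40 for TC32 less CHLA10. Over all genes with a mean of at least 10 CPM it was 0.39 and 0.42. For the other differences between treatment effects it lay between -0.21 and 0.09 over the members. The part of length in the TC32 changes and in these differences was not tested.

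**Figure D5:**
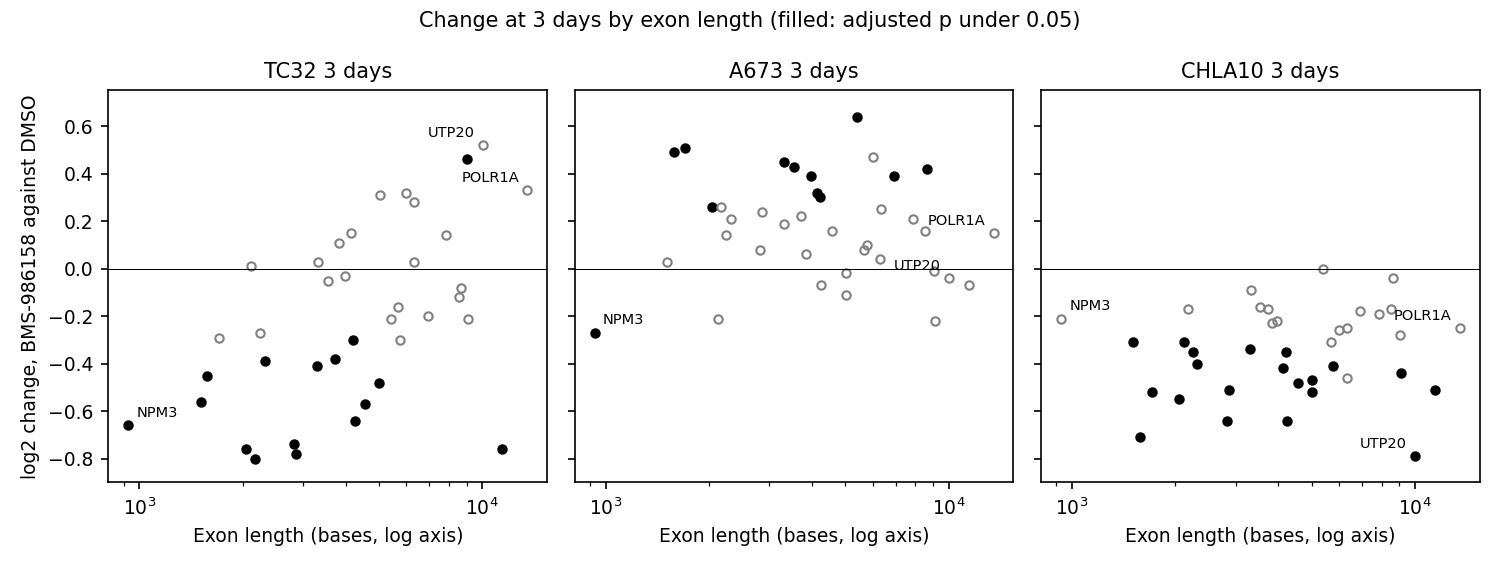
Log2 change at 3 days, treated over DMSO, against annotated exon length in bases (log axis) for 38 members, 1 panel each for TC32, A673 and CHLA10; filled points had adjusted p under 0.05. Short members lie lowest in TC32, where Spearman's rho is 0.53; it is -0.17 in A673 and 0.12 in CHLA10.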

How the data were processed

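Per the labels' protocols, RNA from RNeasy columns was made into poly(A) libraries and sequenced as read pairs on a NovaSeq. The tools named in the submitters' processing notes are STAR, FastQC, DESeq2 and Trim Galore, and the build is GRCh38. How reads were counted, by strand or not, and over which annotation, is not given in the sources used here, nor is any tool version. In the deposited table the values are raw counts in whole reads, by Ensembl gene, in 1 table of 33538 genes and 30 columns, each matching 1 sample title. All labels give 1 batch.

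Counts of the 16713 genes that passed edgeR's filterByExpr were scaled by TMM and fitted in 1 quasi-likelihood model over all 30 libraries with robust dispersion in version 4.0.16 of that package (R 4.3.3), so that groups share 1 estimate of spread. Each of 13 contrasts was tested with the two-sided F-test, adjusted by Benjamini-Hochberg over all genes, and called at adjusted p under 0.05. The contrasts were 5 treatment effects, 6 differences between them and 2 between DMSO cells of both times; comparisons that name the same group share its libraries. CPM use TMM-scaled library sizes, and SE is the absolute log2 change over the square root of F. Coordinates are GRCh38 (GENCODE 29); promoter windows are RefSeq's, GRCh38.p14. Members and gene lists were chosen with earlier results of these data known. Named genes are the 40 members, MYC and its network, HEXIM1, and from each other pathway list genes among the 2 highest and 2 lowest called in each treatment comparison.

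Alternatives were RLE size factors, DESeq2 1.42.0, no filter, the compared lines only, a replicate block, each library left out, and, added after seeing the data, the 4 libraries farthest from their groups left out. Replicate numbers come from sample titles. The deviations of same-numbered treated and DMSO libraries correlated over 0.1 in every pair in CHLA10 at 20 days alone (0.20, 0.15 and 0.36), and the block changed no count there by over 1.5 times. Figures used matplotlib 3.10.9 in Python 3.11.15.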

Additional observations from a re-analysis of the deposited data

Results flagged for a closer look

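Every value in this part is a log2 difference between 2 treatment effects that passed edgeR's quasi-likelihood test of that difference (Benjamini-Hochberg adjusted p under 0.05). No group had 4 or more libraries, so no gene was flagged here for a single outlying library. The 4 distant libraries named above were ranked on all genes tested.

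For A673 at 20 days less A673 at 3 days, the differences were -0.63 for NOP56, -0.60 for FBL, -0.48 for DKC1, -0.76 for GAR1, -0.63 for POLR1B, -0.56 for NCL, -0.73 for WDR43, -0.56 for BYSL, -0.78 for NOP16 and -0.91 for RRS1, so each stood lower at 20 days. For CHLA10 at 20 days less CHLA10 at 3 days they were 0.46 for NHP2, 0.65 for RRP9 and 0.61 for BOP1, each higher at 20 days, and -0.48 for MYC. The members' signs in the 2 lines were opposite, and the DMSO cells of the 2 lines, which enter these differences, also differed between times with opposite signs.

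Between lines at 3 days, TC32 stood below A673 by -0.85 for NOP56, -0.60 for NOP58, -1.06 for FBL, -0.60 for DKC1, -1.02 for GAR1, -0.59 for NHP2, -0.70 for TCOF1, -0.59 for NCL, -0.39 for NPM3 and -0.94 for RRP9. It also stood below by -0.48 for NOP14, -0.51 for DDX10, -0.60 for BOP1, -0.72 for PES1, -1.03 for NOP16, -0.80 for RRS1, -0.82 for MRTO4, -1.06 for PPAN, -0.57 for WDR74 and -0.59 for LYAR. TC32 differed from CHLA10 by -0.63 for FBL, -0.44 for NPM3, 0.83 for DDX21, 1.31 for UTP20, 0.74 for HEATR1, 0.57 for WDR43 and 0.57 for MYC.

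A673 stood above CHLA10 at 3 days by 0.64 for NOP56, 0.54 for NOP58, 0.65 for DKC1, 0.82 for GAR1, 0.57 for NCL, 0.61 for NOLC1, 0.74 for WDR43, 1.20 for RRP9 and 0.59 for NOP14. The same comparison gave 0.46 for DDX10, 0.63 for PES1, 0.76 for NOP16, 1.03 for RRS1, 0.54 for GNL3, 0.72 for MRTO4, 0.58 for WDR74 and 0.60 for LYAR. At 20 days A673 differed from CHLA10 by -0.46 for NHP2, -0.51 for TCOF1, -0.64 for NPM3, -0.51 for BYSL, 0.44 for NOB1, -0.71 for GRWD1 and 0.97 for MYC.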

How the results depend on the processing

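Values are counts of the 40 members called. With 1 library left out, higher and lower counts ran from 0 to 4 and 13 to 17 in TC32 and 0 to 0 and 8 to 20 in A673 at 20 days. They ran from 6 to 17 and 0 to 2 in A673 at 3 days, 0 to 5 and 4 to 6 in CHLA10 at 20 days, and 0 to 0 and 10 to 18 in CHLA10 at 3 days. For differences they ran from 0 to 0 and 3 to 21 for A673 at 20 less 3 days, 0 to 13 and 0 to 1 for CHLA10 at 20 less 3 days, and 0 to 1 and 16 to 24 for TC32 less A673. They were 1 to 5 and 0 to 2 for TC32 less CHLA10, 8 to 26 and 0 to 0 for A673 less CHLA10 at 3 days, and 0 to 1 and 1 to 10 for A673 less CHLA10 at 20 days. For DMSO cells at 20 over 3 days they were 0 to 29 and 0 to 0 in A673, and 1 to 1 and 12 to 24 in CHLA10.

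Of the other alternatives, RLE size factors gave 7 higher and 2 lower in A673 at 3 days, and DESeq2 2 lower there. No filter gave 0 lower there and 1 lower for TC32 less CHLA10. The replicate block gave 2 higher in TC32 and 11 higher for CHLA10 at 20 less 3 days, where DESeq2 gave 6 higher and 1 lower. The compared lines alone gave 6 higher and 0 lower in A673 at 3 days, 3 higher in TC32, 6 higher and 1 lower for CHLA10 at 20 less 3 days, 2 lower for A673 at 20 less 3 days, 7 higher for TC32 less CHLA10 and 0 higher for A673 DMSO cells. The 1 higher for A673 less CHLA10 at 20 days, NOB1, was 0 under RLE, DESeq2, no filter, the block and the lines alone. Without the 4 distant libraries there were 23 higher and 2 lower in A673 at 3 days, 5 higher in TC32 and 8 higher in CHLA10 at 20 days. For differences it gave 17 higher and 1 lower for CHLA10 at 20 less 3 days, 29 lower for A673 at 20 less 3 days, 34 higher for A673 less CHLA10 at 3 days and 12 lower at 20 days, and 10 higher for TC32 less CHLA10. That setting also moved the share of higher among all called genes to 44.7% (59.6% as reported) for A673 at 20 less 3 days and to 56.6% (46.2%) for A673 less CHLA10 at 3 days. In A673 at 3 days UTP20, -0.04 as reported, was 0.54 in that setting and from -0.25 to 0.50 with 1 library left out; POLR1A for TC32 less A673, 0.17 as reported, was -0.30 there. The causes were not tested. Elsewhere than in CHLA10 at 20 days the deviations of same-numbered libraries did not all correlate over 0.1. This cannot tell whether those libraries were paired. Depth limits NOP2 most.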
